A study of Mus musculus with 9 samples.

Results

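Cytosolic heat shock proteins are the chaperones that bind unfolded or damaged proteins in the cytosol and the nucleus. The 10 genes described here are the small heat shock proteins Hspb1, Hspb8 and Cryab, the co-chaperones Bag3 and Dnajb1, the HSP70 proteins Hspa1a, Hspa1b and Hspa8, the HSP70-related exchange factor Hsph1, and Hsp90aa1. They were listed by name out of 18193 genes that the array reads through probe sets assigned to 1 gene. Earlier results of these data were known when the list was chosen. The 10 genes were read by 26 probe sets, of which 23 passed a filter on low values (a log2 value above 5 in at least 3 arrays), and each of the 10 genes kept at least 1.

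Quadriceps femoris, a thigh muscle, was profiled in 9 female mice of a C57Bl/6 line, labelled HT transgenic, in which an MHC class I protein of the mouse's own can be switched on by taking away doxycycline. Late mice (n = 3) lost the drug at 35 days of age and were killed at 50 days by their sample labels. Early mice (n = 3) lost it at 21 days and were killed at 35 days, after 2 weeks of expression. Control mice (n = 3) kept it throughout and were killed at 35 days. The protocol describes the controls as littermates with only a single transgene, whereas the strain label is the same for every mouse, so drug, genotype and expression cannot be told apart in either comparison with the controls. The late group was killed at a greater age than both other groups, so age and expression cannot be told apart there. As the HT model has been published, the muscle creatine kinase promoter drives the transactivator and the class I gene is H-2Kb; the labels used here state neither. The question put by the design is how muscle that makes this protein from a young or a later age differs from muscle that does not.

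Heat shock genes are driven mainly by heat shock factor 1, which is freed when unfolded proteins occupy the chaperones and which binds repeats of the unit GAA in promoters. HSP70 proteins fold or hold clients in cycles of ATP use, J-domain proteins such as Dnajb1 bring the clients, and exchange factors such as Hsph1 and the BAG proteins release them. In skeletal muscle the small heat shock proteins sit on the Z-disc and the cytoskeleton under load, and Bag3 joins Hspb8 and HSP70 in the removal of damaged Z-disc proteins such as filamin C.

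The arrays were hybridised with copies of total muscle RNA, and every value below is a GCRMA log2 value as deposited, where a difference of 1 is a doubling of the signal. Values of different probe sets are not set against each other. H2-K1, the gene of the H-2K heavy chain of class I, had 14.20, 13.11 and 14.31 in late arrays, 14.67, 14.63 and 14.69 in early arrays and 10.88, 10.47 and 10.21 in control arrays on its brightest probe set. On the dimmest one the late arrays lay below the early arrays, with 8.30, 7.19 and 10.41 against 11.52, 12.52 and 11.75. The controls had 3.79, 4.94 and 5.19 there. On another probe set early and control arrays overlapped, with 11.65, 12.57 and 11.55 against 10.87, 11.42 and 11.65. The array of early 3 stood apart from its group. Over the 9697 genes tested, its mean correlation was 0.946 with the other 2 early arrays and 0.969 with the late and control arrays. It was the only array whose own group was the less alike. Its H2-K1 value on the brightest probe set was as high as in the other early arrays. Counts and differences in early mice are therefore also given without it. The 10 markers of muscle fibres all passed the filter, and the median of their differences was -0.06 in late mice against controls and -0.09 in early mice against controls.

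Hspb1, an actin-binding small heat shock protein, was lower in late than in early mice by 1.58 ± 0.38 on the log2 scale (SE, n = 3 each, 2.98-fold, adjusted p = 0.0358, limma with Benjamini-Hochberg adjustment over 9697 genes), and it was the only 1 of the 10 members called in any of the 3 comparisons, where 11.5% of all genes were called in that one and 5.31% were lower in late mice. The call was lost when any 1 of the 8 arrays other than early 3 was left out. In 2 of the 3 early arrays Hspb1, Hspb8 and Cryab all lay above each of the other 7 arrays, and in early 3 they lay near the controls. Bag3 lay higher in all 6 arrays from mice off doxycycline than in any control array, by 1.53-fold in early mice, but did not pass the test (9.63% of all genes lay wholly higher in early than in control arrays and 16% in late than in control arrays).

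Promoters of members with large differences in early mice are shown here because heat shock factor binding motifs in them belong to the textbook account of these genes. Of the 10 members, 7 had an entry in the RefSeq promoter table of build GRCm38.p6. The 250 bases before the annotated start are printed from 5′ to 3′ on the gene's own strand. Capitals mark GAANNTTC, a pair of heat shock units facing each other, which was searched on both strands and reads the same on either. Hspa1a lies at chr17:34972157-34972406 on the minus strand, Hspa1b at chr17:34959239-34959488 on the minus strand, Hspb1 at chr5:135887669-135887918 on the plus strand and Hspb8 at chr5:116422865-116423114 on the minus strand.
Hspa1a: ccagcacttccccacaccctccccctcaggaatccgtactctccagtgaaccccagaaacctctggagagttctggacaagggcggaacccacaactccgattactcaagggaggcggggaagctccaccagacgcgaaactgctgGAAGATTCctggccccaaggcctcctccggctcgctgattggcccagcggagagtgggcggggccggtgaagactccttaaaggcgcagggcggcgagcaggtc
Hspa1b: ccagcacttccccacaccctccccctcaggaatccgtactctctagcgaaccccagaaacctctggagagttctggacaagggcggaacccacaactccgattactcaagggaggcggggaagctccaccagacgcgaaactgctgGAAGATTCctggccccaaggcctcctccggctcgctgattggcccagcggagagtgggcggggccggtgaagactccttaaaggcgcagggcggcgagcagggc
Hspb1: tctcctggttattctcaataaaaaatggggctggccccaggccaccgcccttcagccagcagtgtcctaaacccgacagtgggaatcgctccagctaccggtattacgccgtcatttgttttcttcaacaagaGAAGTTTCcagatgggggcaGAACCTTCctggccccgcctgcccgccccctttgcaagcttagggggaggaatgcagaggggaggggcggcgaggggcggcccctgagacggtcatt
Hspb8: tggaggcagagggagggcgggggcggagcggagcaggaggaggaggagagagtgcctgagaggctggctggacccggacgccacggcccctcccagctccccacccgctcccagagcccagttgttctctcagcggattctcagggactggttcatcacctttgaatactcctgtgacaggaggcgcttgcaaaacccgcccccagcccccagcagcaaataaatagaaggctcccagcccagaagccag

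The windows of Hspa1a and Hspa1b were identical at 247 of 250 bases, and each held GAAGATTC starting 104 bases before the start. The window of Hspb1 held GAAGTTTC at 117 bases and GAACCTTC at 97 bases before the start. No GAANNTTC was found in the window of Hspb8. This pair of units occurred in 6.6939% of 32851 promoter windows of the same length. Counted by gene, the pair occurred in 2088 of 27025 genes and in 3 of the 7 members. The nearly identical windows of Hspa1a and Hspa1b are counted separately in the 3. The other arrangement of the pair, TTCNNGAA, occurred in 7.1657% of windows, in 2193 of 27025 genes and in 1 of the 7 members, Hsph1. The full repeat of 3 units, GAANNTTCNNGAA, contains both of these pairs and was searched on both strands. The repeat occurred in 0.4657% of windows, in 139 of 27025 genes and in 0 of the 7. The ER stress element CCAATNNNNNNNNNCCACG is the site known for promoters of chaperones of the endoplasmic reticulum (ER). This element occurred in 0.1126% of windows, in 35 of 27025 genes and in 0 of the 7. A match is a run of letters, not a bound site.

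Hspb1 had 11.91, 12.55 and 12.20 in late arrays, 14.46, 14.11 and 12.82 in early arrays and 12.73, 12.50 and 12.51 in control arrays. All 3 early arrays lay above all late and all control arrays, early 3 by the narrowest margin. The difference was 1.22 ± 0.38 in early mice against controls (2.33-fold, adjusted p = 0.165, limma) and -0.36 ± 0.38 in late mice against controls (adjusted p = 0.658). A second probe set of Hspb1 gave a difference of -1.57 ± 0.41 between late and early mice and was called too (adjusted p = 0.0456, limma over 16048 probe sets).

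Hspb8, the small heat shock protein that partners Bag3, had 12.04, 12.28 and 12.20 in late arrays, 13.62, 13.57 and 12.30 in early arrays and 12.31, 12.31 and 12.29 in control arrays. Early 1 and 2 stood clearly above every other array, and the 3 late arrays lay just under the 3 controls. The differences were 0.86 ± 0.31 in early mice against controls (1.82-fold, adjusted p = 0.209, limma), -0.13 ± 0.31 in late mice against controls (adjusted p = 0.87) and -0.99 ± 0.31 in late against early mice (adjusted p = 0.0704). A dimmer probe set of Hspb8 read 9.32, 9.69 and 9.59 in late arrays, 12.08, 11.45 and 10.13 in early arrays and 10.25, 9.96 and 9.85 in control arrays. On it the early arrays did not overlap the late arrays, and its difference between late and early mice of -1.69 ± 0.42 was called (adjusted p = 0.0405, limma over probe sets). The third probe set showed the smallest difference, -0.28 ± 0.13, and was not called.

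Cryab, alpha B crystallin, a chaperone of desmin and titin, had 14.12, 14.68 and 14.60 in late arrays, 15.40, 15.25 and 14.46 in early arrays and 14.30, 14.57 and 14.58 in control arrays. Early 1 and 2 were the 2 highest arrays, and early 3 lay inside the control range. The differences were 0.55 ± 0.26 in early mice against controls (adjusted p = 0.294, limma), -0.02 ± 0.26 in late mice against controls (adjusted p = 0.983) and -0.57 ± 0.26 in late against early mice (adjusted p = 0.16). On a less bright probe set of Cryab the late arrays read 12.81, 13.54 and 13.31, the early arrays 15.20, 14.82 and 13.31, and the control arrays 13.49, 13.41 and 13.38. The split between early 1 and 2 and every other array was wider there, and its differences, 1.02 ± 0.43 in early mice against controls and -1.22 ± 0.43 in late against early mice, were not called either.

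**Figure D1:**
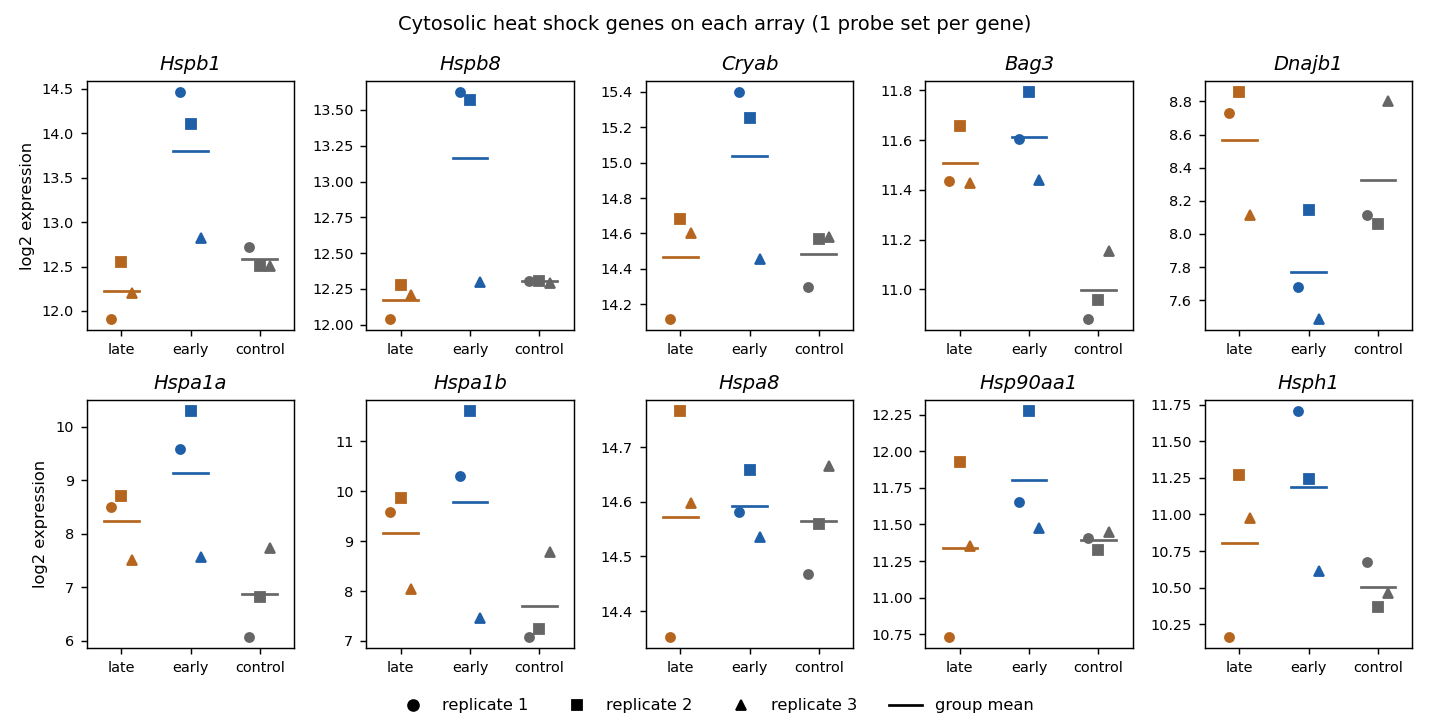
Deposited log2 values of the 10 member genes on the 9 arrays (vertical axis, log2 expression, with its own scale in each panel; groups late, early and control along the horizontal axis; markers give the replicate number, bars the group means). Hspb1, Hspb8 and Cryab were highest in early 1 and 2 and near the controls in early 3, and Bag3 was above every control in all 6 late and early arrays.

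Bag3, the co-chaperone that links HSP70 to the small heat shock proteins, had 11.44, 11.66 and 11.43 in late arrays, 11.60, 11.79 and 11.44 in early arrays and 10.88, 10.96 and 11.15 in control arrays. The lowest of the 6 late and early values was above the highest control value, and the late and early ranges overlapped. The differences were 0.61 ± 0.15 in early mice against controls (1.53-fold, adjusted p = 0.105, limma) and 0.51 ± 0.15 in late mice against controls (1.42-fold, adjusted p = 0.157). Both comparisons use the same 3 controls. Between late and early mice the difference was -0.11 ± 0.15 (adjusted p = 0.64, limma).

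Hspa1a and Hspa1b encode the stress-inducible HSP70. The coding sequences of these neighbouring genes are nearly identical, so the signal of a probe set assigned to one may include the other, and their values are read here as 1 quantity. Hspa1a had 8.50, 8.71 and 7.52 in late arrays, 9.58, 10.30 and 7.56 in early arrays and 6.07, 6.82 and 7.73 in control arrays. Hspa1b had 9.58, 9.87 and 8.04 in late arrays, 10.31, 11.61 and 7.46 in early arrays and 7.08, 7.23 and 8.79 in control arrays. In both genes replicates 1 and 2 of the late and early groups lay above all other arrays, while late 3 and early 3 lay below the highest control array, control 3. Hspa1a differed by 2.27 ± 0.69 in early mice against controls (4.83-fold, adjusted p = 0.162, limma) and by 1.37 ± 0.69 in late mice against controls (2.59-fold, adjusted p = 0.344). Hspa1b differed by 2.09 ± 0.99 (adjusted p = 0.293, limma) and 1.46 ± 0.99 (adjusted p = 0.473) in the same comparisons. These were the largest differences among the members and also had the widest errors, and the other 2 probe sets of Hspa1b gave 1.86 and 2.18 in early mice against controls. Between late and early mice Hspa1a differed by -0.90 ± 0.69 (adjusted p = 0.379, limma) and Hspa1b by -0.63 ± 0.99 (adjusted p = 0.675).

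Hspa8, the constitutive HSP70 of the cytosol, had 14.35, 14.77 and 14.60 in late arrays, 14.58, 14.66 and 14.54 in early arrays and 14.47, 14.56 and 14.67 in control arrays. All 9 values lay in 1 narrow band. The differences were 0.03 ± 0.14, 0.01 ± 0.14 and -0.02 ± 0.14 in early against control, late against control and late against early mice (adjusted p = 0.932, 0.984 and 0.936, limma). The dimmest probe set of Hspa8 gave -1.28 ± 0.83 in early mice against controls, opposite in sign to the other 3 and not called.

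Hsp90aa1, the inducible cytosolic HSP90, had 10.73, 11.93 and 11.36 in late arrays, 11.65, 12.28 and 11.47 in early arrays and 11.41, 11.33 and 11.45 in control arrays. The early arrays lay above the controls, early 3 only just, and the late arrays spread to both sides of them. The difference was 0.41 ± 0.30 in early mice against controls (adjusted p = 0.491, limma), -0.06 ± 0.30 in late mice against controls (adjusted p = 0.943) and -0.46 ± 0.30 in late against early mice (adjusted p = 0.305). One less bright probe set of Hsp90aa1 was called lower in late than in early mice, with 9.18, 9.34 and 8.65 in late arrays and 10.97, 10.35 and 9.81 in early arrays (-1.32 ± 0.34, adjusted p = 0.0418, limma over probe sets). Its controls had 10.11, 9.56 and 9.26, and the other 2 passing probe sets, at -0.46 and -0.74, were not called. Hsph1, an HSP110 exchange factor, had 10.16, 11.27 and 10.98 in late arrays, 11.71, 11.24 and 10.61 in early arrays and 10.68, 10.37 and 10.46 in control arrays. Its early and control ranges overlapped, and its differences of 0.68 ± 0.33, 0.30 ± 0.33 and -0.38 ± 0.33 in the same order of comparisons as for Hspa8 were not called (adjusted p = 0.304, 0.675 and 0.437, limma).

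In early mice against controls and without early 3, Hsp90aa1, Hsph1 and Hspa8 were not called either.

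Dnajb1, the J-domain partner of HSP70, was the only member with a negative difference in early mice against controls. It had 8.73, 8.85 and 8.12 in late arrays, 7.68, 8.14 and 7.49 in early arrays and 8.12, 8.06 and 8.80 in control arrays. Early 1 and 3 were the lowest arrays, and the ranges of all 3 groups overlapped. The difference was -0.55 ± 0.28 in early mice against controls (adjusted p = 0.317, limma), 0.24 ± 0.28 in late mice against controls (adjusted p = 0.688) and 0.80 ± 0.28 in late against early mice (adjusted p = 0.0888), and its other probe set had the same signs.

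In early mice against controls 0 of the 10 members passed the test, where 1.19% of all 9697 genes did, and 4 of the 10 were at an unadjusted p under 0.05 (Bag3, Hspa1a, Hspb1 and Hspb8), where 18.5% of all genes were. The difference was positive for 9 of the 10, against 45.9% of all genes, and the median was 0.65, against -0.03 over all genes. Hspa1a and Hspa1b, whose probe sets may read the same signal, are counted separately in all counts of members. The early and control arrays did not overlap for 3 members, Hspb1, Bag3 and Hsp90aa1, all higher in early mice, where 9.63% of all genes were. In late mice against controls 0 of the 10 passed, where 0.206% of genes did, and 1 of the 10, Bag3, was at an unadjusted p under 0.05, where 17.3% of genes were. The median of the members was 0.13, against 0.01 over all genes. Late arrays did not overlap controls for Bag3, which was higher (16% of all genes were), and for Hspb8, which was lower (14.9% of all genes were).

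In late against early mice 1 of the 10 members, Hspb1, fell, where 5.31% of all genes fell and 11.5% were called in either direction. The median was -0.52, against 0.03 over all genes, and 9 of the 10 were negative. The late arrays lay wholly below the early arrays for Hspb1 and Hspb8, where 13.7% of all genes did. Of the 23 passing probe sets, 4 were called, all lower in late mice: both of Hspb1 and 1 each of Hspb8 and Hsp90aa1 (11.2% of all probe sets were called). For early mice against controls, and for late mice against controls, 0 of the 23 probe sets were called, where 1.02% and 0.162% of all probe sets were.

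With early 3 left out, 6 of the 10 members rose in early mice against controls, where 18.1% of all genes were called and 9.96% rose. This fit keeps only early 1 and early 2 in the early group. Early 3 was singled out from these same data, so the p values without it are not independent of that choice. Hspa1b then differed by 3.26 ± 0.70 (9.57-fold, adjusted p = 0.0179, limma) and Hspa1a by 3.07 ± 0.52 (8.37-fold, adjusted p = 0.00713). Hspb1 differed by 1.71 ± 0.21 (3.26-fold, adjusted p = 0.00205, limma), Hspb8 by 1.29 ± 0.13 (2.45-fold, adjusted p = 0.000894), Cryab by 0.84 ± 0.20 (adjusted p = 0.0241) and Bag3 by 0.70 ± 0.15 (adjusted p = 0.0175). In late against early mice 4 members then fell, Hspb1, Hspb8, Cryab and Hspa1a, where 15.9% of all genes fell and 30.5% were called. In late mice against controls 0 of the 10 passed, where 0.608% of genes did. Without any 1 of the other 8 arrays the adjusted p of Hspb1 in late against early mice lay between 0.0593 and 0.103 (limma). With arrays weighted by how well each followed its group, 8 members rose in early mice against controls (all but Hspa8 and Dnajb1, where 34.4% of all genes were called), Bag3 alone rose in late mice against controls (10.7%), and Hspb1, Hspb8, Cryab and Hspa1a fell in late against early mice (36.4%).

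**Figure D2:**
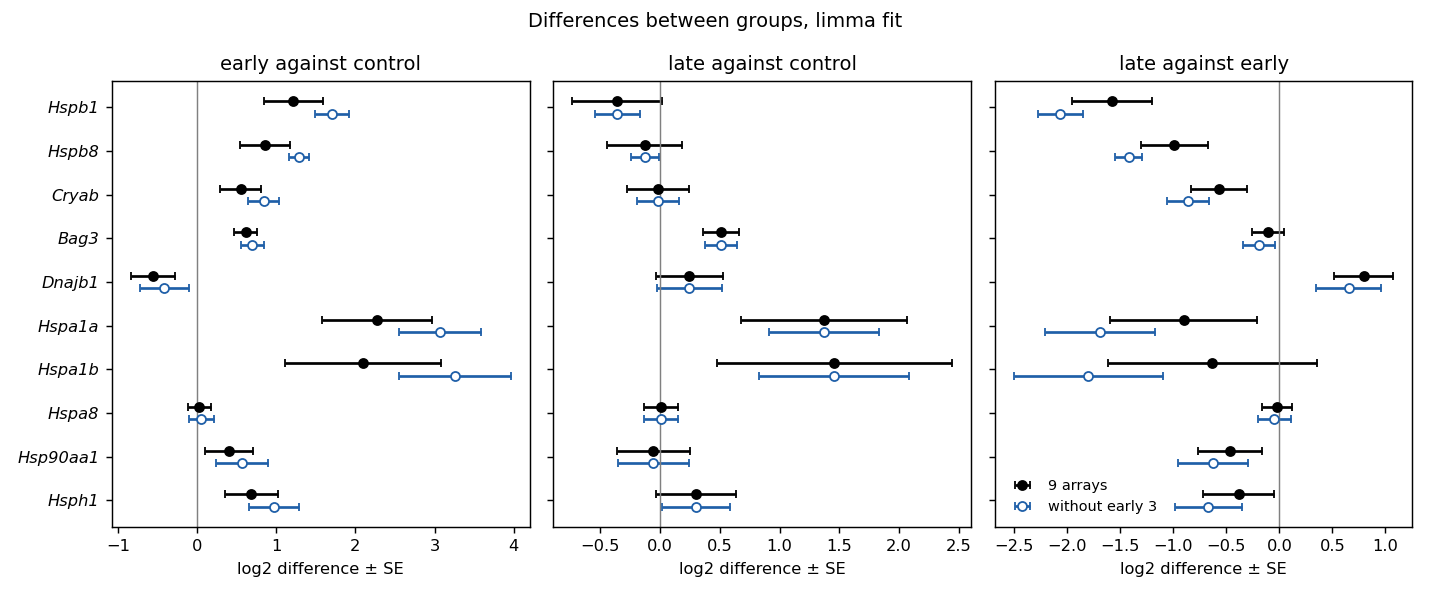
Log2 differences of the 10 members with their standard errors (horizontal axis) for early against control, late against control and late against early mice, from all 9 arrays (filled) and without early 3 (open). Without early 3, Hspb1 stood at 1.71 in early mice against controls and at -2.06 in late against early mice, against 1.22 and -1.58 with all arrays.

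The members fell into patterns over the 9 arrays. Hspb1 and Hspb8 had a Pearson correlation of 0.976 and Hspb8 and Cryab one of 0.935, Hspa1a and Hspa1b had 0.965, and Bag3 was closer to Hspa1a (0.906) than to Hspb1 (0.470). Dnajb1 had -0.505 with Hspb1. The signals of Hspa1a and Hspa1b may include each other, so their correlation is not that of separate measurements. All of these correlations describe 9 arrays in 3 groups that also differ in their means. The median of Hspb1, Hspb8 and Cryab over the control mean was -0.36, -0.02 and -0.10 in late 1, 2 and 3 and 1.32, 1.27 and 0.00 in early 1, 2 and 3. The median of Hspa1a and Hspa1b was 1.76, 2.00 and 0.49 in the late arrays and 2.65, 3.67 and 0.23 in the early arrays. The median of the small heat shock proteins stood clearly above the 3 controls in 2 arrays, and that of the inducible HSP70 in 4.

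The cell type and fibre markers moved over some of the same arrays. The median of 9 macrophage genes over the control mean was -0.09, 0.23 and 0.17 in late arrays and 0.68, 0.48 and -0.33 in early arrays, and the log2 of their summed signal ranged from 12.30 to 12.74 in late arrays, from 12.09 to 13.73 in early arrays and from 12.30 to 12.73 in control arrays. Cd68, a macrophage lysosomal protein, had 7.17, 7.30 and 7.08 in late arrays, 12.06, 11.17 and 6.23 in early arrays and 7.90, 6.74 and 7.15 in control arrays, so that it too was high in early 1 and 2 only. Of the 9 macrophage genes, 7 had a positive difference in early mice against controls. Adgre1 and Csf1r differed by 0.14 and 0.15, and Mrc1 and Cd163 by -0.23 and -0.19. The median of 9 slow fibre genes was 3.85, 3.44 and -0.85 in late arrays, 2.99, -0.12 and -2.90 in early arrays and -0.06, -1.08 and 1.20 in control arrays. This slow fibre list also holds Myh2, the myosin of fast type IIA fibres. The log2 of the summed signal of the 9 genes ranged from 14.91 to 16.55 in late arrays, from 13.72 to 15.93 in early arrays and from 14.43 to 15.12 in control arrays. In control 1 and early 3 the sums were 14.53 and 13.72 and Myh2 alone had 14.11 and 13.20, so those sums were mostly Myh2. Late 1, late 2 and early 1 had the highest slow fibre medians. In these arrays the median of Hspb1, Hspb8 and Cryab was -0.36, -0.02 and 1.32 and that of Hspa1a and Hspa1b was 1.76, 2.00 and 2.65. The highest median of Hspa1a and Hspa1b, 3.67, was in early 2, where the slow fibre median was -0.12. The part of macrophages or of fibre type in the results on the members was not tested, and in whole muscle a change in the share of cells and a change of RNA per cell cannot be told apart.

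Among the markers, 0 of 9 macrophage, 0 of 9 slow fibre and 0 of 10 muscle fibre genes passed the test in any of the 3 comparisons with all 9 arrays. Without early 3, 4 of the 9 macrophage genes, Cd14, Cd68, Ctss and Lyz2, rose in early mice against controls, Cd68 by 4.35 ± 0.36 (adjusted p = 0.000494, limma), and the same 4 fell in late against early mice. In that setting Mrc1 (-0.24) and Cd163 (-0.15) were negative in early mice against controls and were not called. Of the slow fibre genes Atp2a2 then rose in early mice against controls (2.40 ± 0.43, adjusted p = 0.00883, limma) and Tpm3 fell in late against early mice, and 0 of 10 muscle fibre genes passed in either. With array weights 5 macrophage genes, the same 4 and Fcgr3, and Atp2a2 rose in early mice against controls. Of 7 endothelial, 3 adipocyte, 6 fibroblast and 4 Schwann cell genes tested, 0 passed in either comparison with the controls with all arrays. Vwf of endothelium (1.04) and Mbp of Schwann cells (0.80) were called higher in late than in early mice. There 5 of the 7 endothelial genes had a positive difference, and Cldn5 (-1.10) and Kdr (-0.35) had a negative one that was not called. All 4 Schwann cell genes were positive there. Without early 3, Vwf (-1.21), Adipoq of adipocytes (-1.59) and Mbp (-0.92) and S100b (-1.43) of Schwann cells fell in early mice against controls, and in late against early mice Vwf rose and Lum of fibroblasts fell. Of 8 T and NK cell genes 7 were on the array and 0 passed the filter on low values.

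Of 14 chaperones of the ER tested, 12 rose in early mice against controls and 0 fell (median 1.87, where 1.19% of all genes were called), and the same number rose without early 3. Hspa5, the ER member of the HSP70 family, had 13.54, 12.84 and 14.08 in late arrays, 14.98, 15.27 and 15.17 in early arrays and 13.10, 12.63 and 12.72 in control arrays. All 3 early arrays were high by nearly the same amount, with a difference of 2.32 ± 0.29 in early mice against controls (adjusted p = 0.00913, limma). The others that rose were Hsp90b1, Hyou1, Calr, Canx, Dnajb9, Dnajb11, Sdf2l1, Pdia3, Pdia4, Pdia6 and P4hb, chaperones, co-chaperones and disulfide isomerases of the ER lumen or membrane. In late against early mice 11 of the 14 fell (median -1.45), and in late mice against controls 0 passed (median 0.26). The median of the list over the control mean was 0.07, -0.13 and 0.68 in late arrays and 1.42, 2.01 and 1.81 in early arrays, so that early 3, where the median of the small heat shock proteins was at the control level, was between the other early arrays for the ER chaperones. No test of the difference between the lists was made.

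**Figure D3:**
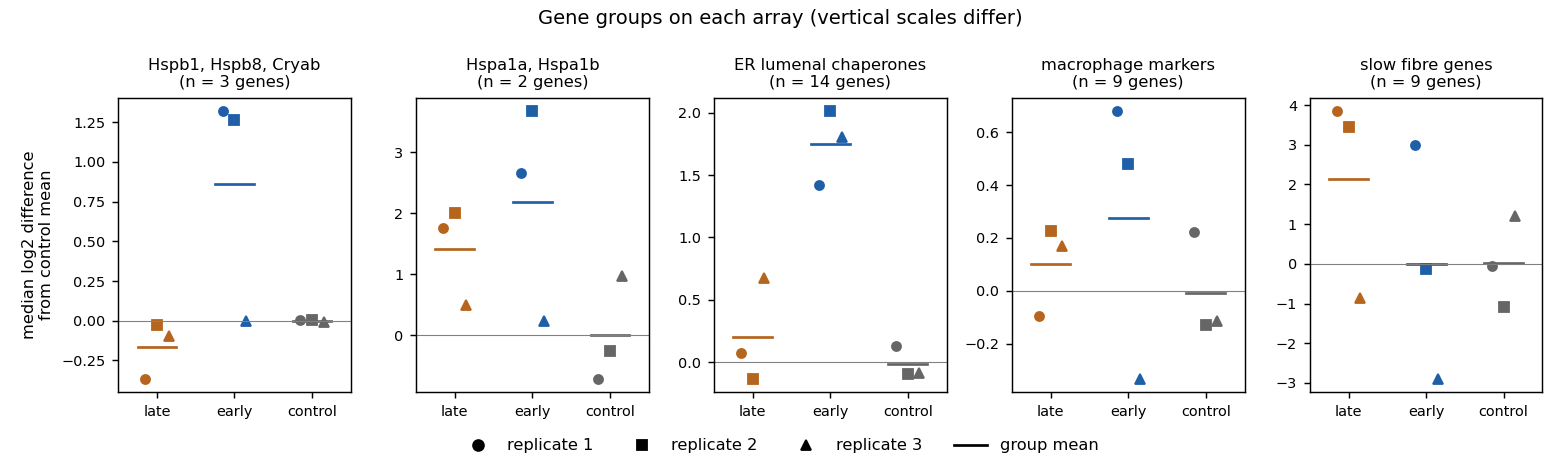
Median log2 difference from the control mean (vertical axis, own scale in each panel) of 5 gene groups on each late, early and control array, with bars for group means. The ER chaperones were at 1.42 to 2.01 in all 3 early arrays, while Hspb1, Hspb8 and Cryab were at 1.32 and 1.27 in early 1 and 2 and at 0.00 in early 3.

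The proteins that work with Bag3 and Hspb8 in chaperone-assisted selective autophagy were a list of 5. Flnc, filamin C, the Z-disc client of this pathway, had 11.50, 11.75 and 11.62 in late arrays, 13.19, 13.06 and 12.11 in early arrays and 11.55, 11.68 and 11.53 in control arrays. All 3 early arrays lay above all others, early 3 least so. Flnc fell by 1.16 on the log2 scale in late against early mice (adjusted p = 0.0313, limma), and its difference of 1.20 ± 0.26 in early mice against controls did not pass (adjusted p = 0.0759; 0.000625 without early 3). Stub1, the ubiquitin ligase CHIP, fell by 0.72 in late against early mice (adjusted p = 0.0448, limma), and Synpo2, the Z-disc protein that links Bag3 to autophagosome formation, rose by 0.59 (adjusted p = 0.0293). Sqstm1, the autophagy receptor p62, differed by 1.10 ± 0.36 in early mice against controls (adjusted p = 0.182, limma) and by 1.54 without early 3 (adjusted p = 0.00505). Des, desmin, differed by 0.44 in early mice against controls and by 0.79 without early 3 (adjusted p = 0.375 and 0.00574, limma). Of this list 0 of 5 passed in either comparison with the controls, and 1 rose and 2 fell in late against early mice.

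Of 6 other small heat shock proteins 4 were tested and 0 passed in any of the 3 comparisons. Hspb7, a small heat shock protein of heart and skeletal muscle that binds filamin C, had 11.37, 12.25 and 10.17 in late arrays, 14.55, 14.35 and 9.90 in early arrays and 10.72, 11.27 and 11.47 in control arrays. Early 1 and 2 were the 2 highest of the 9 arrays and early 3 was the lowest. The difference was 1.78 ± 1.11 in early mice against controls (adjusted p = 0.407, limma) and 3.29 ± 0.53 without early 3 (9.81-fold, adjusted p = 0.00549). Hspb6 differed by 0.27, Hspb2 by 0.19 and Hspb3 by -0.05 in early mice against controls, and in late against early mice these 3 differed by -0.34, -0.85 and -0.54.

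Of 29 other cytosolic chaperones and co-chaperones 0 passed in either comparison with the controls, with medians of 0.04 and 0.03, and 2 fell in late against early mice. These were Stub1, given above, and Cdc37, which brings kinases to HSP90 (-0.72, adjusted p = 0.0353, limma). The smallest p in early mice against controls belonged to Bag5 (0.60), Unc45a (-0.57), Dnajb4 (0.62) and Bag4 (-0.38). Without early 3, 7 of the 29 were called in early mice against controls, where 18.1% of all genes were: Dnaja4, Dnajb2, Dnajb4 and Hspa4l rose, and Dnajb5, Fkbp4 and Unc45a fell. The 8 subunits of the chaperonin TRiC, which folds actin and tubulin, had 0 calls in any comparison, and their differences in early mice against controls lay between -0.15 and 0.30, with Cct7 at 0.30, Tcp1 at 0.16, Cct4 at 0.12 and Cct5 at -0.11. Of 6 mitochondrial chaperones only Grpel1 was called, lower in late than in early mice (-1.12, adjusted p = 0.0272, limma), and Hspd1 (-0.20), Hspe1 (0.14) and Trap1 (-0.08) differed little in early mice against controls. Of 4 genes around heat shock factors, Hsbp1, a factor-binding protein, passed the filter on low values, with a difference of 0.32 in early mice against controls (adjusted p = 0.291, limma), and Hsf1, Hsf2 and Hsf4 were not tested.

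**Figure D4:**
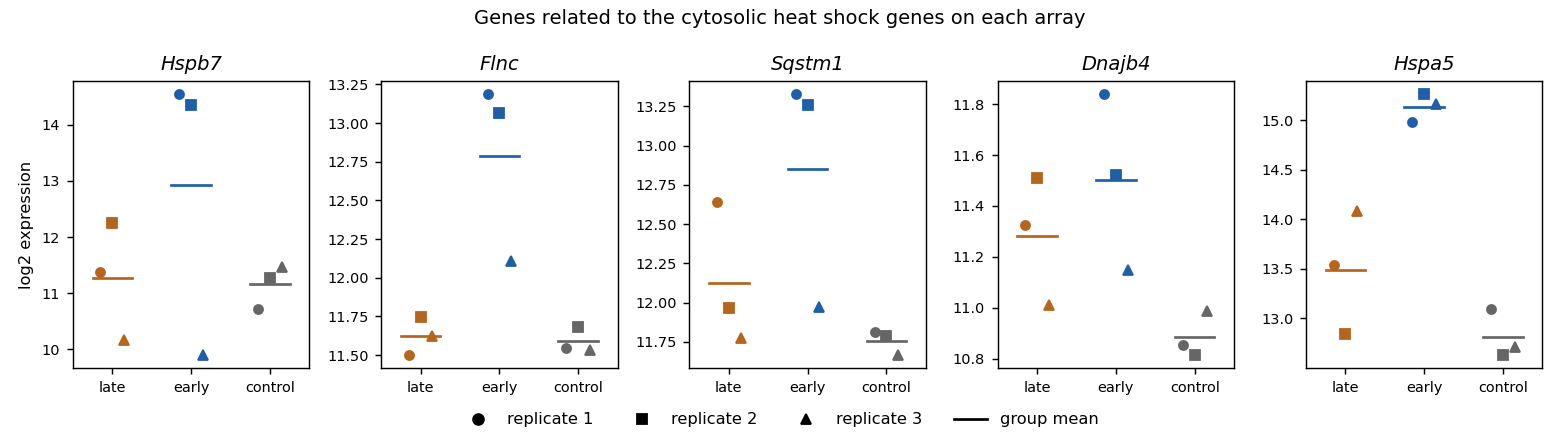
Deposited log2 values of Hspb7, Flnc, Sqstm1, Dnajb4 and Hspa5 on each late, early and control array (vertical axis, own scale in each panel; bars are group means). The first 3 were highest in early 1 and 2, and Hspa5 was at 14.98 to 15.27 in all 3 early arrays.

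The genes most like the members were ranked by their Pearson correlation, over the 9 arrays, with the mean of the 10 standardised members. They were Dnaja4, a J-domain protein (r = 0.963), Cd83 (0.952), Slc47a1 (0.948), Cdc42bpa (0.942), Sh3d19 (0.941) and Tubgcp4 (0.940). Dnaja4 averaged 11.28 ± 0.49 in late, 11.62 ± 0.77 in early and 10.95 ± 0.22 in control arrays (SD, n = 3 each). The means in late, early and control arrays were 5.09, 6.22 and 4.82 for Cd83, 9.24, 9.58 and 8.65 for Slc47a1, and 5.67, 6.18 and 5.55 for Cdc42bpa. They were 8.92, 9.09 and 8.83 for Sh3d19 and 8.17, 8.23 and 7.88 for Tubgcp4. None of the 6 was called in any comparison. Among the members themselves Cryab (0.901) and Hspa1a (0.884) followed this mean closest, and Dnajb1 (-0.02) did not follow it. Each member is part of this mean, which also holds both Hspa1a and Hspa1b. The correlations of members are therefore partly built in and are not comparable with those of the 6 genes.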

How the data were processed

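Quadriceps femoris of 9 female mice was profiled, 1 Affymetrix array per sample, in 3 groups of 3 taken from the sample labels. The deposited log2 values are the authors' GCRMA values, as the submitters' processing notes state, with version and settings not given in the sources used here. This method subtracts background by probe composition, brings all arrays to 1 distribution and gives 1 value per probe set, which hides any change shared by the whole transcriptome and flattens dim probe sets.

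Of 45101 probe sets, 34945 named 1 gene in the platform annotation, 932 named several and 9211 none, and 13 control probe sets that named 1 gene were left out. Probe sets of 1 gene with log2 above 5 in at least 3 arrays were kept (16048), and per gene the one with the highest mean over the 9 arrays (9697 genes). Array medians lay between 3.41 and 3.45. One model of 3 group means was fitted to all 9 arrays with limma 3.58.1 (lmFit, eBayes) in R 4.3.3, with 6 residual and 2.84 prior degrees of freedom. P values were adjusted by Benjamini-Hochberg over all genes tested, or over all probe sets where so stated, and a call is an adjusted p under 0.05. The number of arrays, 3 per group, limits the precision, and an exact test of 3 against 3 cannot go below p = 0.1. Nothing says how the animals of a group were kept apart, so the tests rest on the spread among these 9 samples, which may be partly technical. The fit was tested on simulated data.

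The 10 members and 15 lists of related genes and cell type markers were chosen with earlier results of these data known. Named were all members with every probe set, from each of the 7 lists that are not cell types each gene called and otherwise up to 4 with the smallest p in early against control, and the 6 genes most like the member mean. The cell type markers named, and the genes named only for a call without early 3, were chosen after their values were seen. Replicate numbers are shared by the groups. Deviations of same-numbered early and late arrays from their group means correlated at 0.168, 0.201 and 0.16 across genes. Differently numbered arrays were not compared and no label states a pairing, so these values cannot show one. The main fit used no pairing. The titles carry an additional number that runs on from early 3 to late 3, and the sources used here do not say what it stands for. With controls the early arrays gave 0.35, 0.11 and -0.0391 and the late arrays 0.0847, -0.165 and -0.11, which cannot show a pairing either. Promoter sequences are RefSeq's, build GRCm38.p6. Alternatives were other filters, centring, probe set choices, groups, eBayes settings, array weights, a floor, the replicate block and leaving out each array.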

Additional observations from a re-analysis of the deposited data

Results flagged for a closer look

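Hspb1 differed between late and early mice in a direct comparison of the 2 groups, both taken off doxycycline. Late minus early was -1.58 ± 0.38 on the log2 scale (2.98-fold lower in late mice, adjusted p = 0.0358, limma over 9697 genes). All 3 late arrays lay below all 3 early arrays, where 13.7% of all genes did, and 11.5% of all genes were called. The call held in 9 of 19 alternatives and was lost when any array other than early 3 was left out. Late mice were older and had no controls of their own age, so age and the time of expression cannot be told apart in this difference. No formal test for single outlying arrays was made in groups of 3. Early 3 had 12.82 for Hspb1, against 14.46 and 14.11 in the other early arrays.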

How the results depend on the processing

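Over 19 alternatives, 520 of the member differences kept their direction and side of the threshold, 22 gained a call, 10 lost one and 18 changed sign. The replicate block changed no call of a member gene or probe set: 0, 0 and 1 of the 10 genes in early against control, late against control and late against early mice, and 0, 0 and 4 probe sets; over all genes it gave 62, 5 and 1114 calls, against 115, 20 and 1119. Hspb1 in late against early mice ranged from -2.06 to -1.24 and was called in 9 of the 19, with adjusted p from 0.000767 to 0.114 (limma). Members called there were 0 without the filter on low values, 2 with the mean of a gene's probe sets, 0 with only the compared groups fitted, 4 with array weights and 0 to 4 without 1 array; the probe sets were 0 without the filter and 0 with only the compared groups, 13 with array weights, and 0 to 8 without 1 array. In early against control mice array weights gave 8 genes and 18 probe sets, and leaving out 1 array 0 to 6 genes and 0 to 11 probe sets. In late against control mice array weights gave 1 gene and 1 probe set. The share of all probe sets called was not counted in these alternatives, so the probe set counts have no share to be read against. Array weights called 34.4%, 10.7% and 36.4% of all genes in early against control, late against control and late against early mice. Over all genes, early against control had 56 calls without the filter, 61 with only the compared groups, 3335 with array weights and 6 to 1756 without 1 array. Late against control had 12 calls without probe sets that the array's design marks as shared between transcripts (suffixes _x_at and _s_at), 12 with only the compared groups, 1037 with array weights and 5 to 59 without 1 array. Late against early had 584, 38 and 3534 calls without the filter, with only the compared groups and with array weights, and 143 to 2959 without 1 array. The signs that turned all belong to differences that were not called: Hspa8 in early against control (-0.24 with the mean of its probe sets, -0.021 to 0.079 without 1 array), in late against early (0.30 with the mean, 0.19 without those shared probe sets, 0.020 with array weights, -0.12 to 0.091 without 1 array) and in late against control (-0.089 to 0.12 without 1 array); Hsp90aa1 in late against control (0.20 with array weights, -0.35 to 0.25 without 1 array); Cryab there (0.053 with array weights, -0.12 to 0.16 without 1 array); and Hspa1b in late against early (-1.80 to 0.28 without 1 array). Fitting fewer arrays leaves fewer degrees of freedom, and dropping the filter tests more genes; otherwise the cause was not tested. Signal near background limits 3 of the 26 probe sets, which were not tested.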
